A study of Mus musculus with 16 samples.

Results

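The genes described here are 10 markers of liver zonation, taken as a named set: 7 expressed mainly around the central vein (Glul, Cyp2e1, Cyp1a2, Oat, Slc1a2, Lhpp and Rgn) and 3 expressed mainly around the portal vein (Hal, Gls2 and Hsd17b13). They are 10 of the 15544 genes in the table, and 10 of 10 passed the filter on low values. Bulk RNA-seq of liver was available from 16 female mice aged 27 weeks, kept on a mixed CD-1;129P2 background. Control females carried the floxed Esr1 allele (Esr1fl/fl), which encodes estrogen receptor alpha, and mutant females (Esr1Nkx2-1Cre) carried the same floxed allele together with a Cre recombinase under Nkx2-1. This driver acts in the developing hypothalamus and also in other Nkx2-1 lineages, and it is not a liver driver, so the liver level of Esr1 does not check the genotype labels. Females of both genotypes stayed on chow or received HFD, a high-fat diet, during 17 weeks, giving 4 groups of 4 mice with 1 library per mouse. The comparisons ask whether the zonation markers of the liver differed with genotype on each diet, and with diet in each genotype.

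Blood enters the liver lobule at the portal vein and leaves at the central vein, and hepatocytes along this path carry out different tasks. Wnt signals from the endothelium of the central vein, acting through beta-catenin and TCF/LEF factors, maintain the pericentral program, which includes glutamine synthesis and drug oxidation, whereas glutaminase, histidine breakdown and the urea cycle are favoured near the portal vein. In bulk RNA, fewer cells of a zone and less RNA per cell cannot be told apart.

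Values are normalised gene-level signals of the TPM scale (a share of the library adjusted for transcript length), so levels of different genes can be compared. Column totals ranged from 905897 to 1119703, and sequencing depth is unknown on this scale. The numbers in the library titles form 4 series, whose meaning the labels do not give. Each series lies within 1 diet. The first series holds 3 HFD controls and 1 HFD mutant, and the fourth holds 1 HFD control and 3 HFD mutants. The second holds 2 chow controls and 1 chow mutant, and the third 2 chow controls and 3 chow mutants. Diet and series therefore cannot be told apart. The tissue label was checked with 5 hepatocyte genes, whose summed level was between 56125 and 98047. The one pancreas gene with a row stayed at or under 2.24 and the one adipose gene at or under 0.149. Mutant replicate 2 on chow stood apart by its acute-phase genes: serum amyloid Saa1 measured 20634 there, 385 in mutant replicate 1 on chow and 22.1 to 63.2 in the other 6 chow libraries. On HFD Saa1 was 2886, 379 and 183 in the controls of the first series and 309 in its mutant. In the fourth series it was lower, at 46.0 in the control and 15.6, 27.1 and 111 in the mutants.

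The pericentral genes occupy several chromosomes. On GRCm38, in the GENCODE M21 annotation, Glul lies at chr1:153899944-153909723 on the plus strand, Slc1a2 at chr2:102658659-102790784 on the plus strand, Cyp1a2 at chr9:57676937-57683703 on the minus strand, Cyp2e1 at chr7:140763739-140774987 on the plus strand and Rgn at chrX:20549787-20562089 on the plus strand. Oat (chr7:132557478-132576398, minus strand) and Lhpp (chr7:132610638-132706420, plus strand) are neighbours that point away from each other. The periportal genes Hal (chr10:93488768-93519304, plus strand) and Gls2 (chr10:128194457-128210004, plus strand) share a chromosome, and Hsd17b13 lies at chr5:103955440-103977410 on the minus strand.

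RefSeq promoter windows (GRCm38.p6), each with 250 bases before the transcription start and 50 after it, were available for 7 of the 10 genes. They were searched on both strands for CTTTGAT and CTTTGAA, which are letters that TCF/LEF factors can bind. CTTTGAT was found in 3.73% of all 32851 windows and CTTTGAA in 5.14%, and 8.65% held either. Among the 7 windows, Slc1a2 and Hal held CTTTGAT, Cyp2e1 and Cyp1a2 held CTTTGAA, and those of Glul, Oat and Hsd17b13 held neither. The upstream parts shown are those of the 3 pericentral genes with the highest mutant-to-control ratio on HFD and of Hal, the periportal gene with the smallest unadjusted p in that comparison. They are written 5′ to 3′ along the gene and stop before the first annotated exon that the window reaches. Capitals mark a match, and ATCAAAG and TTCAAAG are the reverse complements of the searched letters.
Glul, chr1:153899679-153899928, plus strand: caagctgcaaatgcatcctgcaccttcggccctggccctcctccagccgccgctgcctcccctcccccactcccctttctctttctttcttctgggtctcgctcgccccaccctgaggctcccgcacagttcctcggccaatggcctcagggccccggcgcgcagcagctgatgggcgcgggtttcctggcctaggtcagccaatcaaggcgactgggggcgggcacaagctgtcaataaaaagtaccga
Cyp1a2, chr9:57683704-57683905, minus strand: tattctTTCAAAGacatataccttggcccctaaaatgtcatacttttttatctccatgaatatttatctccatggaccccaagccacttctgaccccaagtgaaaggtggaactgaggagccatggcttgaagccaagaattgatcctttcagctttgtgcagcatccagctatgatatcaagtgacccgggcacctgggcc
Slc1a2, chr2:102706188-102706355, plus strand: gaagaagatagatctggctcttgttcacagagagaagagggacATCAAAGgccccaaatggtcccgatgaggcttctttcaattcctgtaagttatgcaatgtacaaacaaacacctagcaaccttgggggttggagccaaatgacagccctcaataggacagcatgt
Hal, chr10:93488518-93488767, plus strand: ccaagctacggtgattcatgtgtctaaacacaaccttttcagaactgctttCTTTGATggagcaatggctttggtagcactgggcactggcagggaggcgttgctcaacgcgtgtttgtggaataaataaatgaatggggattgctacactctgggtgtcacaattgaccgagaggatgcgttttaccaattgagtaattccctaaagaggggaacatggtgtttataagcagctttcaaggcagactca
A match was therefore present both in pericentral genes and in the periportal gene Hal. It lay at positions -207 to -201 from the RefSeq start in Slc1a2, at -244 to -238 in Cyp1a2, at -135 to -129 in Cyp2e1 and at -199 to -193 in Hal. The RefSeq start of Slc1a2 lies inside the annotated span of the gene. A match of letters is a description and does not show binding.

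Cyp2e1, which oxidises ethanol and paracetamol, was the most abundant member, with a mean of 4419 over the 16 libraries, the 27th highest among all genes. Rgn, the gluconolactonase regucalcin, averaged 1023, Cyp1a2 684, Glul 428, Oat 344, Gls2 324.9, Hal 219, Hsd17b13 152, Slc1a2 50.8 and Lhpp 42.8. Neighbours in this order such as Oat and Gls2, or Slc1a2 and Lhpp, differed by less than their spread across libraries. Rgn varied least, with a coefficient of variation of 10.6% over the 16 libraries. Slc1a2 varied most at 41.0%, followed by Cyp1a2 at 40.0%.

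**Figure D1:**
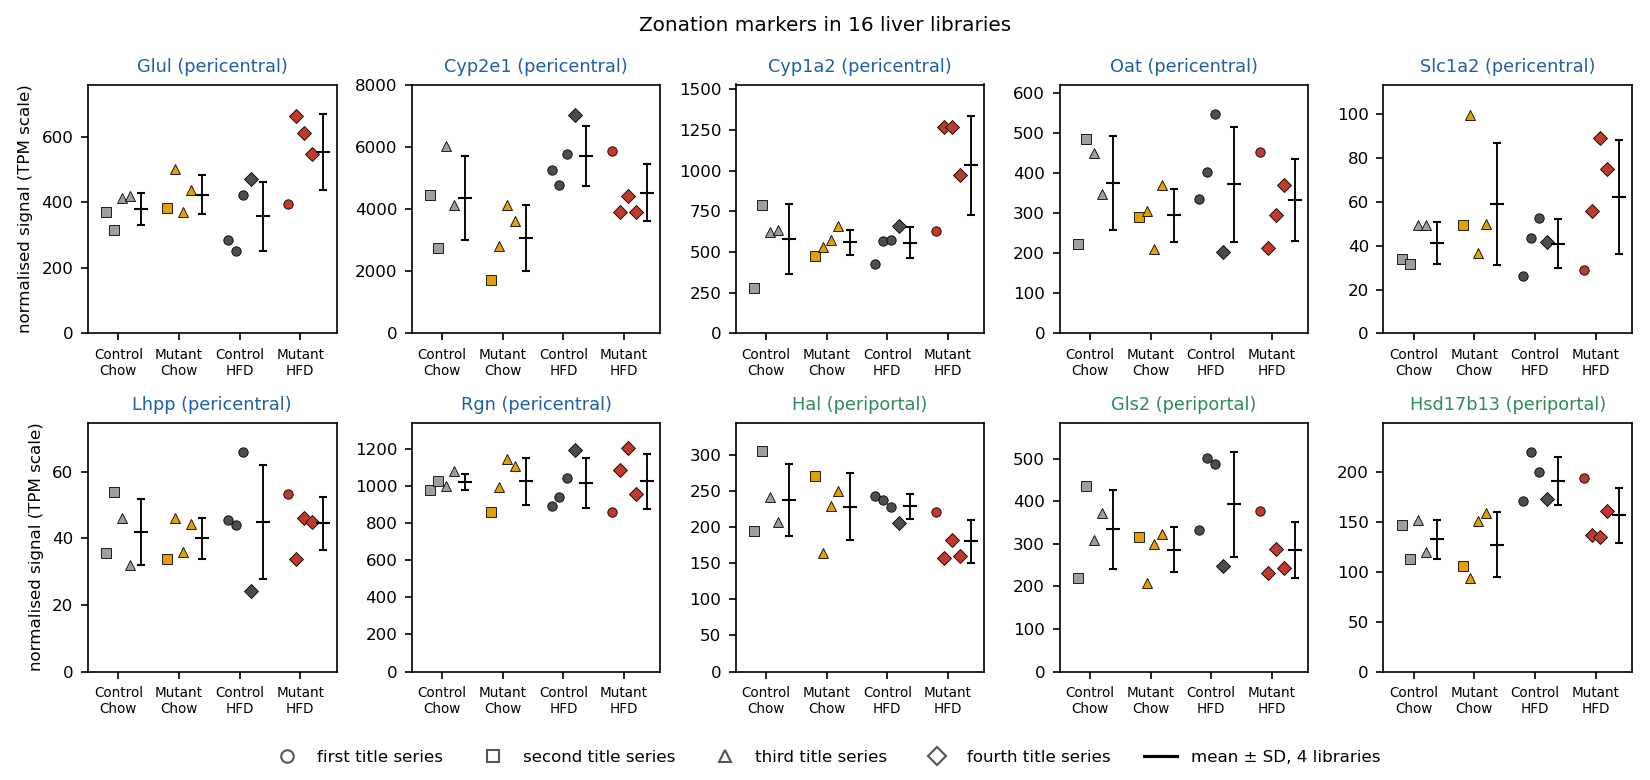
Normalised signal on the TPM scale (vertical axis, from 0) of each of the 10 zonation markers in the 16 liver libraries, by group (horizontal axis), with the mean ± SD of 4 libraries beside the points and the marker shape giving the title series. Mutant libraries of the fourth series on HFD hold the 3 highest values of Glul and of Cyp1a2, and the mutant library of the first series lies among the HFD controls.

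Glul encodes glutamine synthetase, which captures ammonia in the last row of hepatocytes before the central vein. It measured 370, 314.3, 413 and 418 in chow controls, 382, 500, 371 and 437 in chow mutants, 284, 251, 422 and 470 in HFD controls, and 395, 662, 610.0 and 548 in HFD mutants. Mutants of the fourth series on HFD were higher than every other library, whereas mutant replicate 1 on HFD lay between the HFD controls. The mean was 554 ± 116 (SD, n = 4) in HFD mutants against 357 ± 105 in HFD controls, a log2 difference of 0.66 with a 95% interval from 0.22 to 1.09. This did not pass the limma test over all genes (unadjusted p = 0.00575, adjusted p = 0.527). On chow the difference was 0.16, with an interval from -0.28 to 0.59.

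Cyp1a2, which metabolises caffeine and is induced through the aryl hydrocarbon receptor, measured 278, 788, 625 and 638 in chow controls, 478, 531, 576 and 659 in chow mutants, 427, 566, 575 and 659 in HFD controls, and 628, 1268, 1267 and 973 in HFD mutants. The 3 mutants of the fourth series on HFD again exceeded every other library, and the remaining mutant on HFD was within the range of the controls. The mean in HFD mutants was 1034 ± 304 against 557 ± 96.1 in HFD controls, a log2 difference of 0.85 (95% interval 0.25 to 1.46, limma unadjusted p = 0.00898, adjusted p = 0.527). Against chow mutants (561 ± 76.7) the log2 difference was 0.84 (limma adjusted p = 0.623). In controls the diet difference was 0.02, and the genotype by diet interaction was 0.82, with an interval from -0.04 to 1.68 (limma adjusted p = 0.895).

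Slc1a2 encodes the glutamate transporter GLT-1, which supplies pericentral hepatocytes with glutamate. Its level was 33.8, 31.8, 49.6 and 49.6 in chow controls, 49.4, 99.5, 36.7 and 49.8 in chow mutants, 26.0, 43.4, 52.6 and 41.8 in HFD controls, and 29.0, 56.0, 88.9 and 74.9 in HFD mutants. The highest value of the series was in the mutant on chow with the highest Saa1, and the next 3 were in the mutants of the fourth series on HFD, so the groups overlapped. The log2 difference of mutants from controls was 0.43 on chow (95% interval -0.29 to 1.16) and 0.52 on HFD (-0.20 to 1.24), with limma adjusted p-values of 0.949 and 0.635.

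Cyp2e1 behaved differently from these 3 genes. It measured 4467, 2753, 6039 and 4146 in chow controls, 1718, 2825, 4130 and 3626 in chow mutants, 5268, 4794, 5783 and 7021 in HFD controls, and 5877, 3922, 4423 and 3921 in HFD mutants. The lowest library was mutant replicate 1 on chow and the highest control replicate 4 on HFD. Mutants had the lower mean on either diet, 3075 ± 1052 against 4351 ± 1349 on chow and 4536 ± 925 against 5717 ± 959 on HFD, with log2 differences of -0.52 (95% interval -1.11 to 0.06) and -0.34 (-0.93 to 0.25). HFD libraries had the higher mean in either genotype, by 0.43 in controls and 0.61 in mutants (0.03 to 1.20, limma unadjusted p = 0.0408, adjusted p = 0.722). The mutants with the lowest Cyp2e1 on chow, replicates 1 and 2, were the chow libraries with raised Saa1. Control replicate 2 on chow was also low, at 2753, with Saa1 at 30.5. On HFD, control replicate 1 had the highest Saa1 of that diet, 2886, with Cyp2e1 at 5268. Without mutant replicates 1 and 2 the genotype difference of Cyp2e1 on chow was -0.11, a removal chosen after the data were seen. With the title series as a term this difference was -0.70 (limma adjusted p = 0.504). With each library left out in turn it ran from -0.72 to -0.27. The part of the acute-phase genes was not tested.

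Oat, ornithine aminotransferase, links ornithine to glutamate and proline. It ranged from 222 to 485 in chow controls, 211 to 372 in chow mutants, 202 to 548 in HFD controls and 214 to 454 in HFD mutants, and the 4 ranges overlapped. Lhpp, a phosphatase, ranged from 24.1 to 65.9 over all libraries. Both extremes of Lhpp were in HFD controls, and so were both extremes of Oat. Rgn ranged from 862 to 1203. Its group means lay between 1017 and 1027, and the 95% interval of its genotype difference on HFD ran from -0.28 to 0.30 on the log2 scale, the narrowest of the 10 genes.

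Hal encodes histidine ammonia-lyase, the first enzyme of histidine breakdown. It measured 195, 306, 241 and 208 in chow controls, 271, 164, 229 and 250 in chow mutants, 244, 237, 228 and 206 in HFD controls, and 222, 157, 183 and 160 in HFD mutants. The 3 mutants of the fourth series on HFD were below every control of either diet, and mutant replicate 1 on HFD was not. The mean was 181 ± 29.7 in HFD mutants and 229 ± 16.7 in HFD controls, a log2 difference of -0.35 with an interval from -0.71 to 0.01 (limma adjusted p = 0.577).

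Gls2, the liver glutaminase that releases ammonia from glutamine, measured 219, 437, 309 and 373 in chow controls, 315.5, 207, 301 and 323 in chow mutants, 334, 503, 488 and 248 in HFD controls, and 377, 232.01, 288 and 244 in HFD mutants. The control of the fourth series on HFD lay among the mutants of that series. Mutants on HFD differed from HFD controls by -0.43 on the log2 scale (95% interval -0.97 to 0.11, limma adjusted p = 0.609), and the difference was -0.20 on chow.

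Hsd17b13 encodes a lipid droplet protein of hepatocytes. It measured 147, 113, 152 and 120 in chow controls, 106, 94.3, 151 and 159 in chow mutants, 171, 221, 200.5 and 173 in HFD controls, and 195, 137, 135 and 161 in HFD mutants. Every control on HFD was above every control on chow, with means of 191 ± 23.9 and 133 ± 19.6. The log2 difference was 0.52 (95% interval 0.15 to 0.90). An exact two-sided permutation test gave p = 0.0286, the smallest that 4 against 4 libraries allow, and the limma adjusted p was 0.267. The diet difference in mutants was 0.32 (-0.06 to 0.70), and the groups overlapped.

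**Figure D2:**
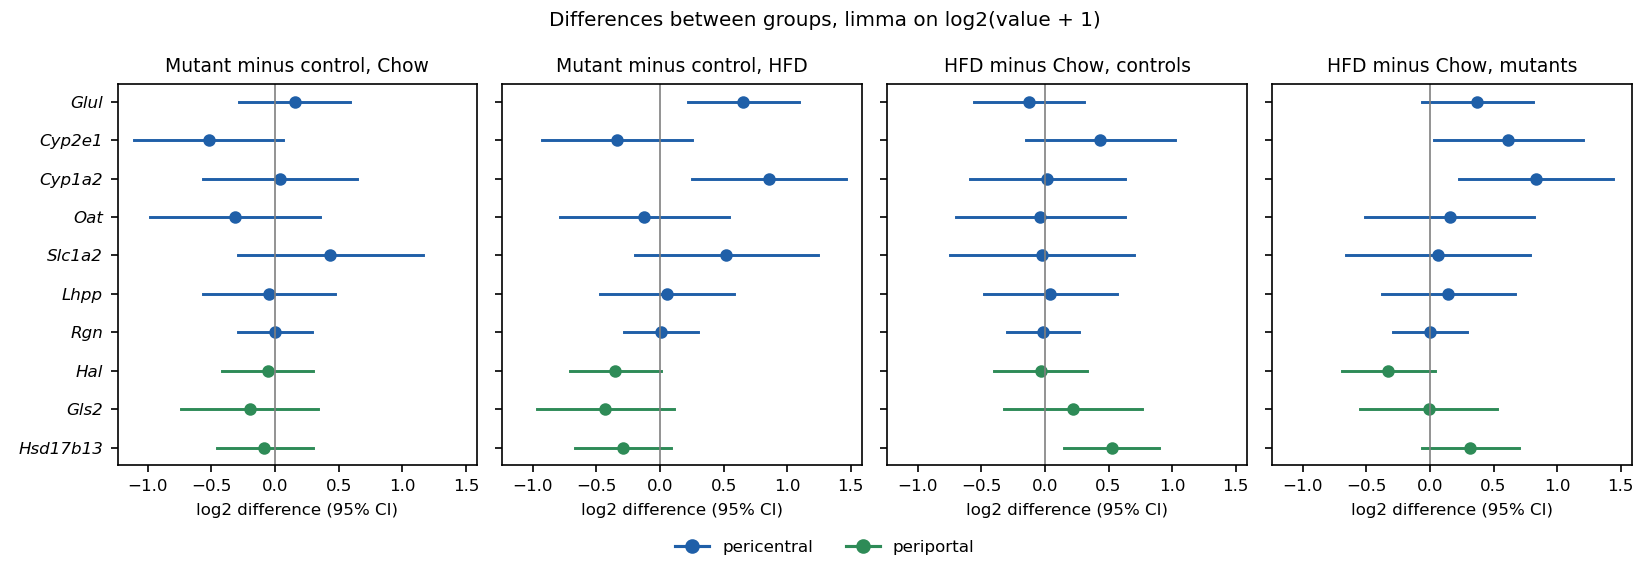
Log2 differences (horizontal axis) of the 10 members (rows) in the 4 comparisons between groups of 4 libraries, with bars for the 95% interval of the limma fit and colour for the zone. Intervals that leave out 0 belong to Glul and Cyp1a2 for genotype on HFD, to Hsd17b13 for diet in controls, and to Cyp2e1 and Cyp1a2 for diet in mutants.

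Counted over the set, no member passed the limma test at an adjusted p of 0.05 in any comparison. For genotype on chow 0 of 10 passed, where 3 of 12704 tested genes (0.0236%) did. At an unadjusted p under 0.05 there were 0 of 10 members and 772 genes (6.08%). For genotype on HFD 0 of 10 passed, against 2 of all genes (0.0157%), and 2 members, Glul and Cyp1a2, were under an unadjusted 0.05, as were 8.60% of all genes. For diet in controls 0 members and 0 genes (0%) passed, and 1 member, Hsd17b13, was under an unadjusted 0.05 with 12.9% of all genes. For diet in mutants 0 members and 0 genes (0%) passed, and 2 members, Cyp1a2 and Cyp2e1, were under an unadjusted 0.05 with 6.86% of all genes. For the interaction 0 members and 0 genes (0%) passed, with 0 members and 4.21% of genes under an unadjusted 0.05. The lowest adjusted p of a member over the 5 comparisons was 0.267. Of 40 exact permutation tests (10 genes in 4 comparisons, two-sided), the only one under 0.05 was that of Hsd17b13 in controls, which was also the only member whose groups did not overlap there, as was the case for 6.36% of all genes. In the other comparisons 0 of 10 members were free of overlap, against 3.05% of all genes between the genotypes on chow, 2.69% between the genotypes on HFD and 3.53% between the diets in mutants.

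The direction of the members on HFD followed the zones in part. Mutants had the higher fitted level in 5 of the 7 pericentral genes, the exceptions being Cyp2e1 and Oat, although Lhpp (0.05) and Rgn (0.01) turned negative and Oat (-0.12) turned positive under other settings, and the lower level in 3 of the 3 periportal genes. To describe this in each mouse, the mean log2(value + 1) of the 3 periportal genes was subtracted from that of the 7 pericentral genes. The difference was 0.58, 0.49, 0.83 and 0.74 in chow controls, 0.42, 1.35, 0.52 and 0.66 in chow mutants, 0.34, 0.19, 0.62 and 0.73 in HFD controls, and 0.54, 1.20, 1.29 and 1.20 in HFD mutants. The 3 mutants of the fourth series on HFD were above every control, as was the mutant on chow with the highest Saa1, and mutant replicate 1 on HFD was among the controls. Group means were 0.66 ± 0.15, 0.74 ± 0.42, 0.47 ± 0.25 and 1.06 ± 0.35 (SD, n = 4), in the same order. In the 2 HFD series taken alone, mutants were 0.16 above controls in the first and 0.50 above in the fourth, and with the series as a term 0.33 above, where the group means differ by 0.59. No test between groups was made of this score, since the genes were chosen with results known.

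**Figure D3:**
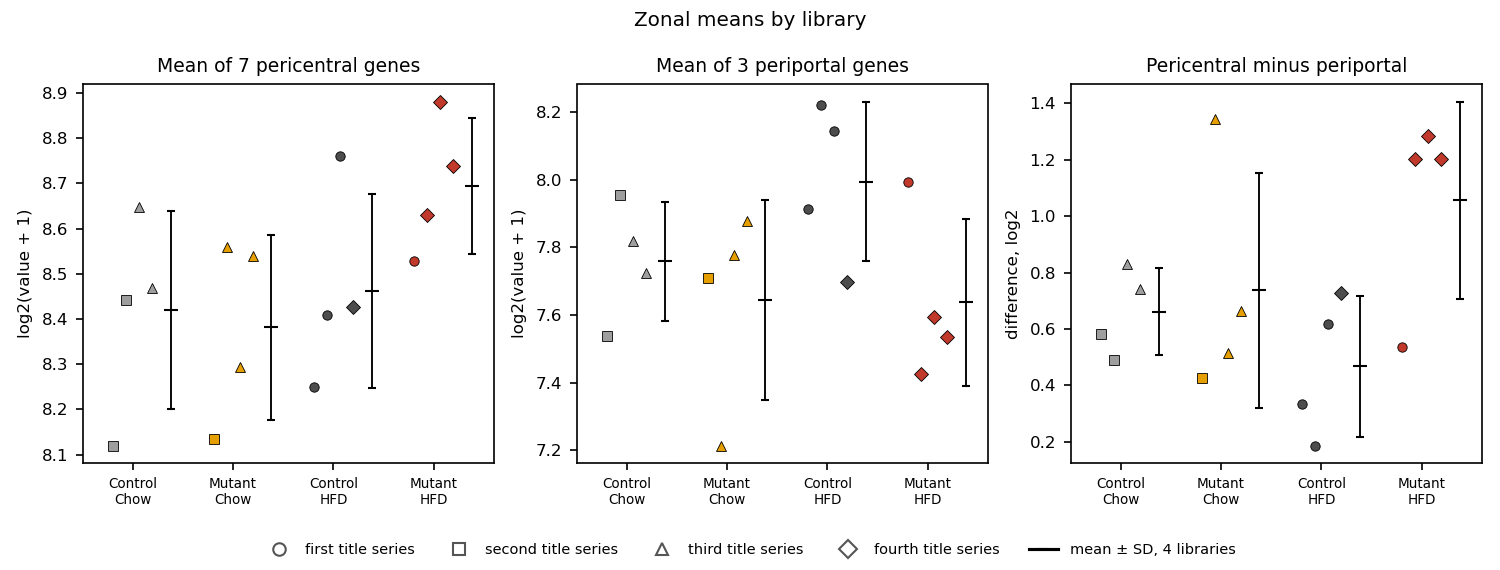
Mean log2(value + 1) of the 7 pericentral genes, of the 3 periportal genes and the difference between both means (vertical axes, not from 0) in each library, by group, with the mean ± SD beside the points and the shape giving the title series. In HFD mutants the libraries of the fourth series lie at 1.20, 1.29 and 1.20 and that of the first series at 0.54.

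Because genotype is unevenly spread over the HFD series, the HFD comparison was also made within each series and with the series in the fit. In the first series (3 controls, 1 mutant) the mutant differed from the mean of the controls by 0.34 for Glul, 0.28 for Cyp1a2, -0.42 for Slc1a2, -0.09 for Hal and -0.20 for Gls2 on the log2 scale. In the fourth (1 control, 3 mutants) these differences were 0.36, 0.81, 0.77, -0.30 and 0.03. Slc1a2 and Gls2 changed direction between the series, as did Cyp2e1 (0.16 and -0.78). The other 7 members kept 1 direction. Mutants were higher in both for Glul, Cyp1a2, Oat (0.11 and 0.50) and Lhpp (0.06 and 0.75), and lower in both for Rgn (-0.15 and -0.15), Hal and Hsd17b13 (-0.01 and -0.26). For Oat and Rgn these directions are opposite to those of all mutants against all controls on HFD (-0.12 and 0.01). With the series as a term, Glul was 0.35 higher in mutants (limma, unadjusted p = 0.0555, adjusted p = 1.0) and Cyp1a2 0.55 higher (limma, unadjusted p = 0.0789) and Hal differed by -0.20. The limma adjusted p of each of the 3 was 1.0. Then 0 of 10 members passed, against 2 genes (0.0157%), and 0 of 10 were under an unadjusted 0.05, where 4.47% of all genes were. The part of the series in the difference between all mutants and all HFD controls could not be separated further with 1 library of a genotype in each.

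Settings that give less room to these single libraries moved the other way. With library weights estimated by limma, in which mutant replicate 1 and control replicate 4 on HFD had weights of 0.329 and 0.228 against 0.908 to 2.10 for the other HFD libraries, 6 of 10 members passed for genotype on HFD, beside 3926 of all genes (30.9%). Glul (0.91, limma adjusted p = 0.00201), Cyp1a2 (1.05, adjusted p = 0.00438) and Slc1a2 (0.72, adjusted p = 0.0424) were higher in mutants, and Hal (-0.46), Gls2 (-0.77) and Hsd17b13 (-0.46) were lower. With those 2 libraries removed, chosen after the data were seen, 3 members passed, beside 21.4% of all genes: Glul at 0.96, Cyp1a2 at 1.16 and Gls2 at -0.77. With the weights, 1 member, Hsd17b13, also passed for diet in controls (0.59, limma adjusted p = 0.0153), beside 17.8% of all genes. In the fit without the 2 libraries genotype and series coincide on HFD and cannot be told apart. With the library weights they nearly coincide, since the same 2 libraries count for little, so this limit also bears on the members that passed there for genotype on HFD.

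**Figure D4:**
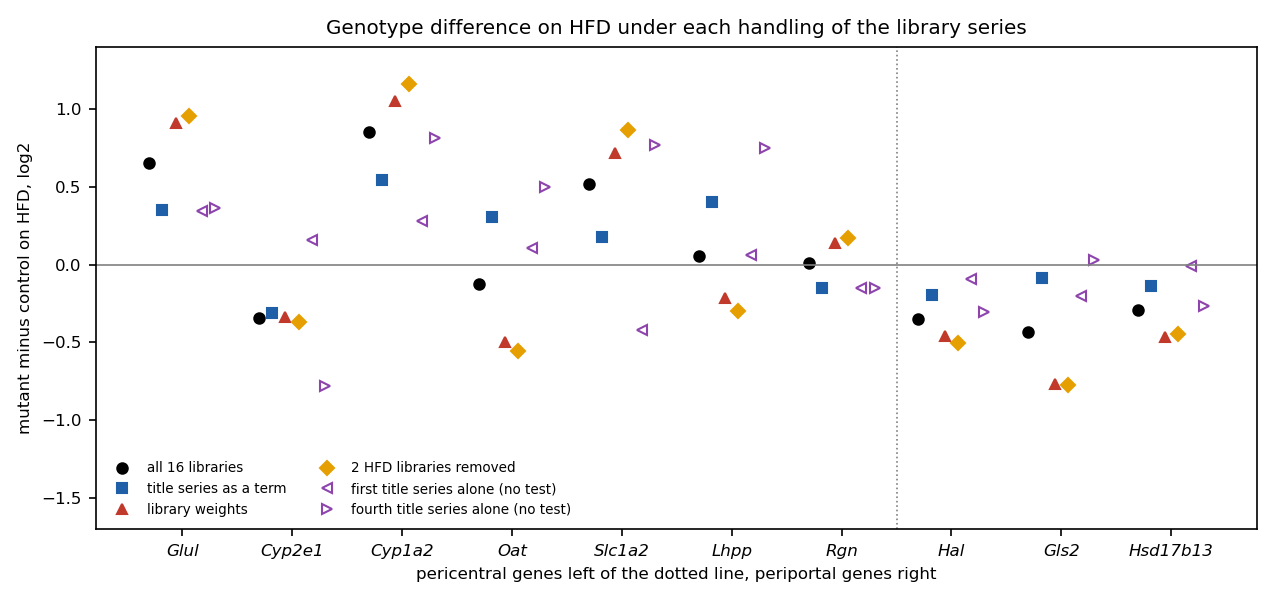
Log2 difference between mutants and HFD controls (vertical axis) for each member (horizontal axis) in the fit of all 16 libraries, with the title series as a term, with library weights, with 2 HFD libraries removed, and within each HFD series alone. Glul goes from 0.66 with all libraries to 0.35 with the series term and 0.96 with the 2 libraries removed, and Oat from -0.12 to 0.30 and -0.55.

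Other genes of the same zones were read beside the members. Of 34 other pericentral genes tested, 27 were higher and 7 lower in HFD mutants, with a median log2 difference of 0.26 where the median over all genes was 0.02. None passed the limma test at an adjusted 0.05, and at an unadjusted 0.05 there were 9 higher and 2 lower, 11 of 34, where 8.60% of all genes were under it. The smallest p-values belonged to Cyp7a1, the rate-limiting enzyme of bile acid synthesis (2.32, unadjusted p = 0.00203), the aryl hydrocarbon receptor Ahr (0.99, unadjusted p = 0.00223) and the R-spondin receptor Lgr5 (0.85, unadjusted p = 0.00903). Of 35 other periportal genes, 12 were higher and 23 lower, with a median of -0.10. Cyp2f2, a periportal cytochrome P450, had the smallest p (-1.38, unadjusted p = 0.0123, limma adjusted p = 0.542).

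Values of these genes by library are given for HFD first. Cyp7a1 was 152, 239 and 228 in the mutants of the fourth series on HFD, 45.1 in the mutant of the first series and 12.1 to 77.1 in HFD controls. Cyp2f2 was 44.4, 38.7 and 43.3 in those 3 mutants, 185 in the mutant of the first series and 112 to 270 in HFD controls. Ahr was 25.7, 25.3 and 20.6 in those 3 mutants, 11.1 in the mutant of the first series and 7.40 to 14.3 in HFD controls. Cyp7a1, Cyp2f2 and Ahr thus split the HFD mutants in the way that Glul and Cyp1a2 did. Lgr5 did not, with 4.60, 6.58 and 3.46 in those 3 mutants, 4.03 in the mutant of the first series and 0.994 to 3.68 in HFD controls. HFD mutants and HFD controls therefore overlapped in Lgr5. Low Cyp2f2 was also measured on chow, at 77.7 and 53.6 in mutant replicates 1 and 2, which had raised Saa1, against 135 and 240.1 in the other chow mutants and 201 to 219 in chow controls. The part of the acute-phase genes in Cyp2f2 was not tested.

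On chow the direction of the pericentral list was the opposite, with 9 of 34 higher and 25 lower in mutants, a median of -0.09 and 0 past the adjusted threshold. Cyp3a11, a drug-metabolising cytochrome P450, had the smallest p (-2.47, unadjusted p = 0.00533, limma adjusted p = 0.67). Between diets, 29 of the 34 were higher on HFD in mutants (median 0.25) and 14 of 34 in controls (median -0.12). Gulo, an enzyme of the ascorbate route to which Rgn also belongs, was 0.53 higher on HFD in mutants (unadjusted p = 0.00115, limma adjusted p = 0.421). The difference between the diet effects was not past the threshold for any gene of the list.

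Regulators of the zones and the partner enzymes of the members gave no calls either. Of 25 Wnt and zonation regulators 23 were tested and 0 passed in any comparison. On HFD the transcription factor gene Tcf7 was 0.89 higher in mutants (unadjusted p = 0.00111, limma adjusted p = 0.516) and Lgr4, a receptor for R-spondins, 0.44 higher. Tcf7 was 11.1, 9.95 and 9.31 in HFD mutants of the fourth series. In the HFD mutant of the first series it was 4.57, within the 3.21 to 5.04 of HFD controls. On chow Tcf7 was 5.41 to 8.84 in controls and 6.22 to 9.93 in mutants. HFD controls thus lay below every chow library, and chow mutants overlapped the HFD mutants of the fourth series. Of 16 tested genes of glutamine and proline metabolism, 5 were higher and 11 lower in HFD mutants, led by the proline-forming Pycr1 (-0.54, limma adjusted p = 0.527). The 3 enzymes that act after Hal in histidine breakdown, Ftcd (-0.37), Amdhd1 (-0.35) and Uroc1 (-0.06), were on the same side as Hal, with 0 past the threshold. In the urea cycle 1 of 5 genes was higher and 4 lower, with a median of -0.11.

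Of 8 aryl hydrocarbon receptor genes 6 were tested. On HFD 6 of 6 were higher in mutants (median 0.22, 0 past the threshold), where 52.9% of all genes were higher. On chow 5 of the 6 were also higher in mutants (median 0.16, 0 past the threshold), where 54.6% of all genes were higher. Ahr itself is counted in the list of other pericentral genes as well. Cyp1a1 and Cyp1b1, induced through the same receptor as Cyp1a2, were under the filter. Among 9 lipid droplet genes tested, Hsd17b11, a lipid droplet dehydrogenase related to Hsd17b13, was 0.56 higher on HFD in controls and 0.53 higher in mutants, and lower in mutants by -0.54 on chow and -0.57 on HFD. None of these values passed the adjusted threshold, the lowest adjusted p for Hsd17b11 being 0.241 in controls.

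Markers of non-hepatocyte cells were read beside these values. Of 7 Kupffer cell markers 7 were higher in chow mutants (median 0.68, 0 past the threshold), where 54.6% of all genes were higher. Among them Clec4f was 192 and 169 in mutant replicates 1 and 2 on chow, which had raised Saa1. It was 80.7 and 121 in the other chow mutants and 52.4 to 132 in chow controls. The summed level of the 7 markers on chow was 122 to 427 in controls and 212 to 622 in mutants. On HFD their summed level was 275 to 421 in controls and 228 to 337 in mutants. Liver endothelial markers, not chosen for the central vein, summed to 163 to 201 in HFD controls and 164 to 212 in HFD mutants. Bile duct markers summed to 31.2 to 47.5 and stellate cell markers to 116 to 238 over all groups. Lymphocyte markers stayed between 3.89 and 20.0, and red cell genes between 1623 and 6925. The part of these cells in the differences of the members was not tested.

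The profile of a member across the 16 libraries was also compared with that of every other kept gene, by the Pearson correlation of log2(value + 1), as a description of libraries that share groups and series. The genes most like Glul were Zbtb1 (r = 0.877), Aplf (0.861), Slk (0.861), Lin7c (0.858) and Sgms1 (0.852). For Cyp2e1 they were Hsd17b11 (0.901), Dnase2b (0.898), Ormdl1 (0.888), Pkp4 (0.887) and Ctse (0.886), and for Hal they were Ethe1 (0.905), Ptgds (0.887), Acat3 (0.874), Slc22a15 (0.855) and Paxx (0.820). No member of the set was among the 5 most similar genes of Glul, Cyp2e1 or Hal.

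The strongest likeness within the set was between the neighbours Oat and Lhpp, a pair chosen after its values were seen. Their ends are 34.2 kb apart on chromosome 7 with 1 protein-coding gene, Nkx1-2, between them. The Pearson r was 0.824 and Spearman's rho 0.726 over 16 libraries. Lhpp was the gene most like Oat among 12703 others. Within groups r was 0.852, and without the 2 libraries farthest from the median of Oat it was 0.783. Glul and Slc1a2, which handle glutamate in the same cells, had r = 0.708, Glul and Hal had r = -0.744, and Glul and Cyp2e1, both pericentral, had r = -0.0213. Pairs of a pericentral and a periportal gene went both ways, from the -0.744 of Glul and Hal to 0.761 for Cyp2e1 and Hsd17b13. Oat and Gls2 had r = 0.721. Over the pairs of pericentral genes, r ran from -0.386 for Oat and Rgn to the 0.824 of Oat and Lhpp.

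**Figure D5:**
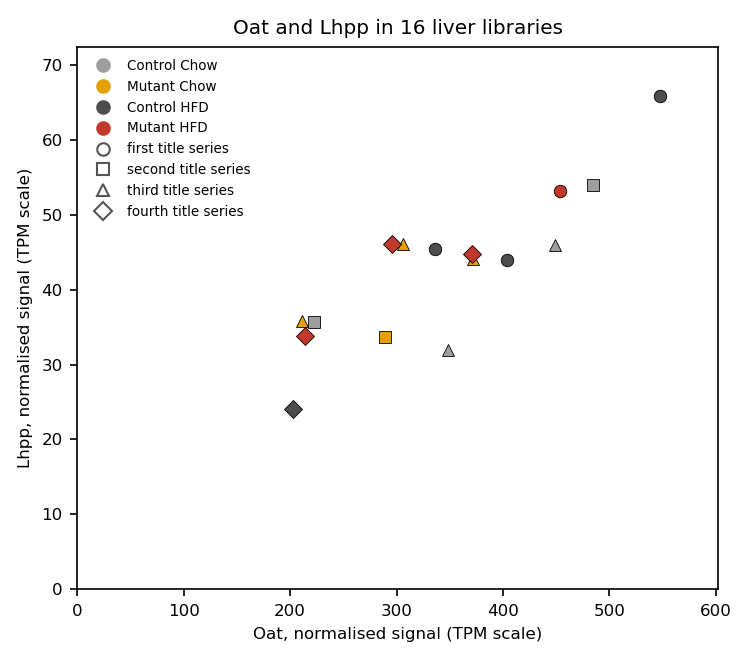
Normalised signal of Lhpp (vertical axis) against that of its chromosomal neighbour Oat (horizontal axis) in the 16 libraries, coloured by group and shaped by title series. Control replicate 3 on HFD is highest in both genes (548 and 65.9) and control replicate 4 on HFD lowest in both (202 and 24.1).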

How the data were processed

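Total RNA from 16 livers was sequenced by the authors on an Illumina NovaSeq after NEBNext Ultra II library preparation. The submitters' processing notes name kallisto, sleuth and mm10 (GRCm38). Tool versions and annotation release are not given in the sources used here. The deposited values are a gene-level signal of TPM type, adjusted between libraries by the authors, a unit inferred from the values. kallisto divides reads among similar transcripts, so values of near-identical genes are uncertain. Groups follow the genotype and treatment labels.

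A gene was kept if 4 or more libraries reached a value of 1 (12704 genes). log2(value + 1) was fitted with limma 3.58.1 (R 4.3.3), trended variance, 4 group means over all 16 libraries, and p-values were adjusted over all kept genes by Benjamini-Hochberg (threshold 0.05). Fold changes on this scale understate changes of low genes. A count model did not apply to this unit. The script was tested on simulated data. The limma p-values of the main fit set a group difference against the spread between mice within groups, pooled over the 4 groups. Each group mixes title series, so this spread also holds differences between series.

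The members and lists were chosen with earlier results of these data known. Named beyond the members were, per list, at most 3 genes by smallest unadjusted p, and for Glul, Cyp2e1 and Hal the 5 genes of highest correlation. Alternatives were other scalings, filters and pseudocounts, only the groups compared, library weights, a series term and each library left out.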

Additional observations from a re-analysis of the deposited data

Results flagged for a closer look

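In mutants on HFD the pericentral minus periportal difference of replicate 1 was 0.54, far from the 1.20 to 1.29 of the other 3 libraries, by Dixon's test at the 95% level. Replicate 1 is the mutant of the first title series and the others are of the fourth. This was 1 of 52 group-wise sets of values tested, and chance alone marks about 1 in 20.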

How the results depend on the processing

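Alternatives were a different scaling, filter or pseudocount, fitting the compared groups alone, library weights, the title series as a term and each library left out, plus 2 removals chosen after the data were seen. Of 1270 member values recomputed, 1155 kept their direction and their side of the threshold, 10 passed it in addition (6 for genotype on HFD and 1 for diet in controls, Hsd17b13, with library weights, and 3 without 2 HFD libraries), and 105 changed sign, none of which had passed the test. The count of members past the threshold stayed 0 under every other setting. No paired analysis was made, since each library comes from a different mouse and the labels name no pairs.

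The count over all genes moved more. For genotype on chow it was 1 with a filter of 5 or more and with the series term, 6 with only the groups compared and with library weights, 12 without the 2 HFD libraries, and 1 to 14 with a library left out. For genotype on HFD it was 1 with only the groups compared, 3926 with library weights, 2694 without the 2 HFD libraries, and 2 to 141 with a library left out, the highest without mutant replicate 1 on HFD. For diet in controls it was 2 with all columns scaled to an equal sum, 4 with only the groups compared, 2264 with library weights, 1897 without the 2 HFD libraries, 3 without mutant replicates 1 and 2 on chow, and 0 to 928 with a library left out, the highest without control replicate 4 on HFD. For diet in mutants it was 1 with only the groups compared, 9 with library weights, 3 without the 2 HFD libraries, 2 without mutant replicates 1 and 2 on chow, and 0 to 2 with a library left out. For the interaction it was 921 without the 2 HFD libraries. The causes were not tested.

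With median-of-ratios size factors the sign changed for genotype on chow Cyp1a2 (-0.001), for genotype on HFD Rgn (-0.021), for diet in controls Rgn (0.003), and for diet in mutants Rgn (0.02), Gls2 (0.011). With all columns scaled to an equal sum the sign changed for genotype on chow Cyp1a2 (-0.047), and for diet in controls Cyp1a2 (-0.16), Lhpp (-0.13). With the title series as a term the sign changed for genotype on chow Cyp1a2 (-0.058), for genotype on HFD Oat (0.30), Rgn (-0.15), and for the interaction Slc1a2 (-0.15), Rgn (-0.11), Gls2 (0.11). With library weights the sign changed for genotype on chow Rgn (0.058), Hal (0.01), Hsd17b13 (0.06), for genotype on HFD Lhpp (-0.21), for diet in controls Cyp1a2 (-0.03), Oat (0.17), Slc1a2 (0.023), for diet in mutants Rgn (0.01), and for the interaction Oat (-0.13), Lhpp (-0.14). Without mutant replicates 1 and 2 on chow the sign changed for genotype on chow Rgn (0.14), Hal (0.032), Hsd17b13 (0.23), and for the interaction Cyp2e1 (-0.23), Rgn (-0.13). Without mutant replicate 1 and control replicate 4 on HFD the sign changed for genotype on HFD Lhpp (-0.30), for diet in controls Cyp1a2 (-0.069), Oat (0.22), Hal (0.015), for diet in mutants Oat (-0.011), Rgn (0.077), and for the interaction Oat (-0.23), Lhpp (-0.25). Leaving out each library in turn changed the sign of 24 of the 50 member differences, which then ranged for diet in controls Cyp1a2 from -0.30 to 0.20, Glul from -0.27 to 0.026, Hal from -0.12 to 0.093, Lhpp from -0.17 to 0.30, Oat from -0.27 to 0.22, Rgn from -0.096 to 0.046, Slc1a2 from -0.15 to 0.18, for diet in mutants Gls2 from -0.16 to 0.079, Oat from -0.011 to 0.35, Rgn from -0.084 to 0.077, Slc1a2 from -0.14 to 0.39, for the interaction Cyp2e1 from -0.074 to 0.38, Lhpp from -0.16 to 0.31, Oat from -0.068 to 0.43, Rgn from -0.069 to 0.093, Slc1a2 from -0.12 to 0.41, for genotype on HFD Lhpp from -0.21 to 0.26, Oat from -0.39 to 0.09, Rgn from -0.069 to 0.092, and for genotype on chow Cyp1a2 from -0.29 to 0.21, Hal from -0.15 to 0.092, Hsd17b13 from -0.20 to 0.048, Lhpp from -0.17 to 0.08, Rgn from -0.056 to 0.08. The sign of the zonal difference for genotype on chow (0.08) also turned without mutant replicate 2 on chow (-0.13), without both mutants with raised Saa1 (-0.07) and with the title series as a term (-0.005). For genotype on HFD (0.59) it was 0.50 to 0.76 with a library left out, 0.85 without the 2 HFD libraries and 0.33 with the title series as a term. Sequencing depth is unknown, so its limits on these values could not be given.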
